A study of Mus musculus with 2 samples.

Results

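Epithelial cells hold together through junctions built from a small set of proteins, and 9 of their genes were examined in mouse embryonic stem cells (mESCs) by name: the cadherins *Cdh1*, *Cdh2* and *Cdh3*, the adhesion molecule *Epcam*, the claudins *Cldn4*, *Cldn6* and *Cldn7*, the catenin *Ctnna1* and the connexin *Gja1*. They are 9 of the 22556 genes in the count table, and all 9 were found there. Polyadenylated RNA was sequenced from 2 replicates of the female (XX) iXist-ChrX-Dom line, a cross of Dom/129S with Cast in which a TetOn promoter replaces the native *Xist* promoter on the Dom/129S allele. Both libraries are from 0 h, before *Xist* was induced, and the cells were kept in medium with foetal calf serum and LIF, with fibroblast feeders taken away by pre-plating. The labels give the source as mESC and the cell type as mESC to NPC. All values thus come from 1 group of a single engineered line, and the labels do not say whether the replicates were separate cultures, so the p-values below cover counting error between these libraries and no spread between cultures.

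In an epithelium, classical cadherins on neighbouring cells bind each other in the presence of calcium, and their cytoplasmic tails bind β-catenin, which in turn binds α-catenin and so the actin cytoskeleton. Claudins form the strands of tight junctions, which seal the space between cells, and connexins form gap junctions, through which small molecules pass from cell to cell. Mouse ES cells derive from the epiblast, and E-cadherin, the product of *Cdh1*, is known to hold their compact colonies together.

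Library totals were 23716499 counts in replicate 1 and 20275749 in replicate 2. A count of 0 allows up to 3 counts, which is 0.126 and 0.148 counts per 1000000 (CPM). Such floors and the 95% intervals below cover counting error only, since copies made by PCR were not told apart here. A fragment was counted wherever it fell between the start and the end of a gene, introns included. To compare genes with each other, counts were divided by the exonic length and scaled to a sum of 1000000 per library (transcripts per 1000000, TPM), so that fragments from introns, where there were any, raise the TPM of genes with long introns. All coordinates are mm10, as the table gives them. No exon of the 9 genes overlaps another gene of the table on the same strand, and none of their transcripts' 50-base words occurs in a pseudogene transcript.

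The 9 genes ranged from 3.44 to 302 TPM in mean level. All 9 reached a mean of 1 TPM, beside 55.4% of the 22089 genes with an exonic length, and 6 reached 10 TPM, beside 34.1%. *Ctnna1* was highest, and *Cdh1*, *Gja1* and *Epcam* followed close together. *Cdh3*, *Cldn4* and *Cldn7* were lower, and *Cdh2* and *Cldn6* were lowest. The median of the 9 was 18.4 TPM, against 1.86 TPM over all genes.

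**Figure D1:**
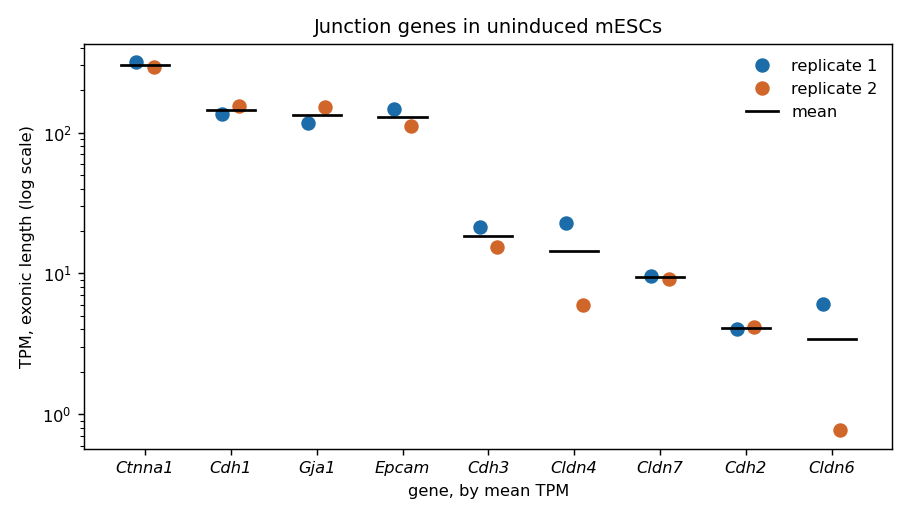
TPM with exonic length (log scale) of the 9 junction genes, ordered by mean; points are the 2 replicates and bars their mean. *Ctnna1*, *Cdh1*, *Gja1* and *Epcam* all lie above 110 TPM in both replicates, and *Cldn4* and *Cldn6* have the widest gaps between replicates.

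Among the cadherin transcripts, that of *Cdh1*, the E-cadherin gene, was by far the most abundant. *Cdh1* (chromosome 8, 106603367 to 106670246, plus strand) had 4481 and 4147 counts in replicates 1 and 2, or 135 and 155 TPM, with a mean of 145 ± 14.4 TPM (SD, n = 2). Its mean level was above that of 92.8% of all genes. *Cdh3*, which encodes P-cadherin, the classical cadherin first described in placenta, lies just before *Cdh1* on the same strand (106510851 to 106556911). It had 704 and 407 counts, or 21.4 and 15.4 TPM (18.4 ± 4.25, SD, n = 2). *Cdh2* encodes N-cadherin, which is typical of neural and mesenchymal cells. It had 150 and 125 counts, or 4.03 and 4.17 TPM (4.10 ± 0.103, SD, n = 2). The level of *Cdh1* was thus 33.4 times that of *Cdh2* in replicate 1 and 37.1 times in replicate 2 with exonic length, and 98.3 and 109 times with the span length, and *Cdh1* exceeded *Cdh3* 6.30 and 10.1 times. *Cdh2* spans 220174 bases with 4955 bases of exon, so its TPM is open to intronic fragments more than that of *Cdh1*, with 66880 and 4430 bases.

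Over all 23 cadherins of the table that were listed here, *Cdh1* took 73.6% of the summed TPM in replicate 1 and 77.4% in replicate 2. *Cdh3* came next with 11.7% and 7.68%, and *Cdh2* took 2.20% and 2.09%. Of the 20 cadherins besides *Cdh1*, *Cdh2* and *Cdh3*, 6 reached 1 TPM, and 4 were listed at 0 in both libraries. These were *Cdh5*, the cadherin of blood vessel walls, with *Cdh16*, *Cdh17* and *Cdh26*. The highest of the 20 were *Cdh18* at 8.10 and 12.9 TPM, *Cdh4*, the R-cadherin gene, at 4.99 and 3.36 TPM, and *Cdh24* at 2.90 and 2.61 TPM. With the span length in place of the exonic length, *Cdh18* had a mean of 0.345 TPM and *Cdh24* of 5.33 TPM, so their order depended on the length.

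The α-catenin transcripts were almost wholly those of *Ctnna1*. *Ctnna1*, the α-catenin of epithelia, had 8826 and 6551 counts, or 315 and 290 TPM (302 ± 17.1, SD, n = 2), and ranked 666 among all genes. It took 99.0% and 98.6% of the TPM summed over the α-catenins *Ctnna1*, *Ctnna2* and *Ctnna3*. *Ctnna2*, the neural form, had 37 and 51 counts and *Ctnna3* had 66 and 63. The TPM of *Cdh1* was 0.428 and 0.533 times that of *Ctnna1* with exonic length, but 1.03 and 1.29 times with the span length, so which of the pair was higher depended on the length. The transcript of *Ctnnb1*, the β-catenin gene, was higher still at 600.0 and 654 TPM, which is 4.46 and 4.22 times the level of *Cdh1*. β-Catenin also acts as the transcriptional effector of Wnt signalling. *Ctnnd1*, whose product p120-catenin binds the cadherin tail nearer the membrane, stood at 53.7 and 50.1 TPM, and *Jup*, the gene of plakoglobin, at 4.55 and 3.65 TPM.

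*Epcam* (chromosome 17, 87635978 to 87651127, plus strand) encodes a homophilic adhesion molecule of epithelia and ES cells. It had 2273 counts in replicate 1 and 1381 in replicate 2, or 147 and 111 TPM (129 ± 25.3, SD, n = 2). Of 6 relatives, proteases and inhibitors listed with it, 3 reached 1 TPM, beside 55.4% of all genes. *Spint2*, an inhibitor of membrane serine proteases, stood at 50.4 and 38.3 TPM, *St14*, the gene of the protease matriptase, at 9.96 and 6.45 TPM, and *Spint1*, an inhibitor of matriptase, at 8.02 and 1.32 TPM.

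The levels of the claudin genes *Cldn4* and *Cldn6* rested mainly on replicate 1. *Cldn4* (chromosome 5, 134945123 to 134946934, minus strand) had 310 and 65 counts, or 22.7 and 5.92 TPM (14.3 ± 11.9, SD, n = 2). *Cldn6* (chromosome 17, 23679364 to 23682446, plus strand), known from the early embryo, had 79 and 8 counts, or 6.11 and 0.769 TPM (3.44 ± 3.78, SD, n = 2). *Cldn7* (chromosome 11, 69964778 to 69967886, plus strand), whose product is known to bind EpCAM, had 107 and 82 counts, or 9.64 and 9.19 TPM (9.41 ± 0.320, SD, n = 2). *Cldn4* was the highest of these in replicate 1 and *Cldn7* in replicate 2, with a ratio of *Cldn7* to *Cldn4* of 0.424 and 1.55. With the span length the ratio was 0.201 and 0.735, with *Cldn4* higher in both.

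*Cldn12*, outside the 9, was the main claudin transcript. It had 1954 and 1883 counts, or 66.0 and 79.1 TPM, and took 59.1% and 78.5% of the TPM summed over 23 claudins. *Cldn4* took 20.3% and 5.88%, *Cldn7* 8.63% and 9.12%, and *Cldn6* 5.47% and 0.764%. Of the 20 claudins besides *Cldn4*, *Cldn6* and *Cldn7*, 3 reached 1 TPM, namely *Cldn12*, *Cldn2* (4.20 and 2.55 TPM) and *Cldn14* (1.89 and 1.85 TPM). The listed value was 0 in both libraries for 9 of them, *Cldn5* and *Cldn18* included, but 99.3% of the 50-base words of *Cldn20* also occur in pseudogene transcripts, so its 0 is uncertain.

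*Gja1*, which encodes connexin 43, and *Gjc1*, the connexin 45 gene, held most of the connexin transcripts. *Gja1* (chromosome 10, 56377299 to 56390419, plus strand) had 2946 and 3096 counts, or 116 and 152 TPM (134 ± 25.2, SD, n = 2). *Gjc1* had 2804 and 2039 counts, or 137 and 124 TPM. *Gja1* took 41.9% and 53.7% of the TPM summed over 20 connexins and *Gjc1* took 49.4% and 43.8%, so with exonic length the order of the pair was not the same in both libraries. With the span length *Gja1* was higher in both, at 1.62 and 2.34 times the TPM of *Gjc1*. Of the 19 connexins besides *Gja1*, 10 were listed at 0 in both and 5 reached 1 TPM. Among the 5, *Gjb5* had 49 and 5 counts (3.79 and 0.481 TPM).

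**Figure D2:**
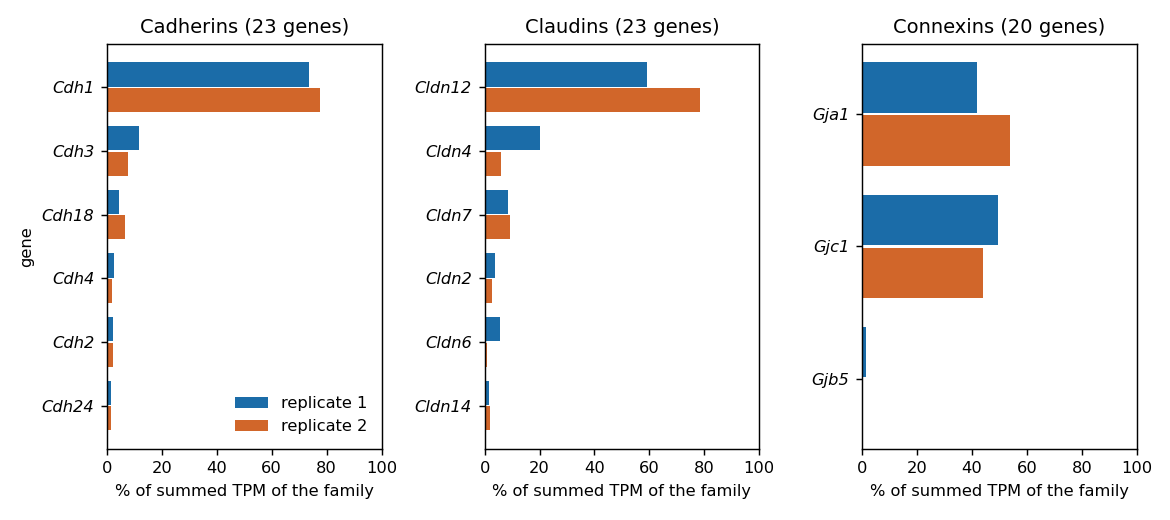
Share of the summed TPM (exonic length) of each family taken by the genes whose shares or levels are given in the text, for 23 cadherins, 23 claudins and 20 connexins; bars are the 2 replicates. *Cdh1* leads the cadherins in both, *Cldn12* leads the claudins, and *Gja1* and *Gjc1* change places between replicates.

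Set side by side, the order of the 9 means was *Ctnna1*, *Cdh1*, *Gja1*, *Epcam*, *Cdh3*, *Cldn4*, *Cldn7*, *Cdh2* and *Cldn6*. The ranges of the replicates were separate between *Ctnna1* and *Cdh1*, between *Epcam* and *Cdh3*, and between *Cldn7* and *Cdh2*. They overlapped for the other 5 neighbouring pairs, so *Cdh1*, *Gja1* and *Epcam* could not be ordered beyond their spread, nor could *Cdh3* and *Cldn4*, *Cldn4* and *Cldn7*, or *Cdh2* and *Cldn6*. The order held for 35 of 36 pairs of the 9 genes in replicate 2 alone and for 32 of 36 in replicate 1 alone. With the span length it held for 25 of 36, with *Gja1* first at 180.1 TPM, *Ctnna1* in place 5 at 43.2 TPM and *Cdh2* last at 0.481 TPM.

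Whether each gene was measured alike in both libraries was tested by an exact binomial test of its 2 counts against the ratio of library totals, adjusted by Benjamini-Hochberg over the 14536 genes with at least 10 counts. That test compares these 2 libraries, not conditions, and in bulk RNA fewer cells with a transcript and less of it per cell cannot be told apart. Of the 9 genes, 7 differed at an adjusted p of 0.05, beside 60.8% of all genes tested. In replicate 2, 2 were higher, beside 15.1% of all genes, and 5 were lower, beside 45.7%. Their median log2 ratio of replicate 2 over replicate 1 was −0.20, against −0.31 over all genes tested, whose ratios had an SD of 0.76. The ratios of the 5 called genes *Cdh1*, *Ctnna1*, *Gja1*, *Epcam* and *Cdh3* given below lie within that SD of the median of all genes, so these calls show a difference beyond counting error only.

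*Cldn6* and *Cldn4* fell most in replicate 2. *Cldn6* fell by 3.0 on the log2 scale (95% exact interval −4.34 to −2.03, adjusted p = 7.06e-13 in the exact binomial test), and 0.812% of the genes tested had a lower ratio. With 8 counts in replicate 2 it was tested only because of replicate 1. A filter of 10 counts in each replicate left it untested and 6 of the 9 genes called. *Cldn4* fell by 2.02 (−2.44 to −1.64, adjusted p = 1.33e-30, exact binomial test), with 4.0% of genes lower. In contrast, *Cldn7* had a log2 ratio of −0.16 (−0.59 to 0.27, adjusted p = 0.547, exact binomial test), so the 3 claudins did not move alike. *Cdh3* fell by 0.56 (adjusted p = 8.19e-10), *Epcam* by 0.49 (adjusted p = 4.23e-23) and *Ctnna1* by 0.20 (adjusted p = 2.40e-17) in the same exact test.

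*Gja1* and *Cdh1* were higher in replicate 2. The log2 ratio of *Gja1* was 0.30 (95% exact interval 0.22 to 0.37, adjusted p = 6.79e-15, exact binomial test), and that of *Cdh1* was 0.11 (0.05 to 0.18, adjusted p = 0.000563). For *Cdh2* it was −0.04 (−0.39 to 0.32, adjusted p = 0.895), so at 150 and 125 counts a difference inside that interval was not detectable.

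The ratio between replicates also moved with GC content over all genes. Its median was 0.23 for the 1846 genes tested with up to 42% GC in their longest transcript and −0.92 for the 3580 genes above 54%. *Gja1* had the lowest GC content of the 9, at 42.2%, and the highest ratio. *Cldn7*, *Cldn4* and *Cldn6* had the highest GC contents, at 57.0%, 56.8% and 54.4%, with ratios of −0.16, −2.02 and −3.0. *Ctnna1* (49.4%), *Cdh2* (49.5%), *Cdh1* (50.7%), *Cdh3* (52.1%) and *Epcam* (52.7%) lay between. *Cldn7* and *Cldn4*, at nearly the same GC content, thus stood on different sides of the test.

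**Figure D3:**
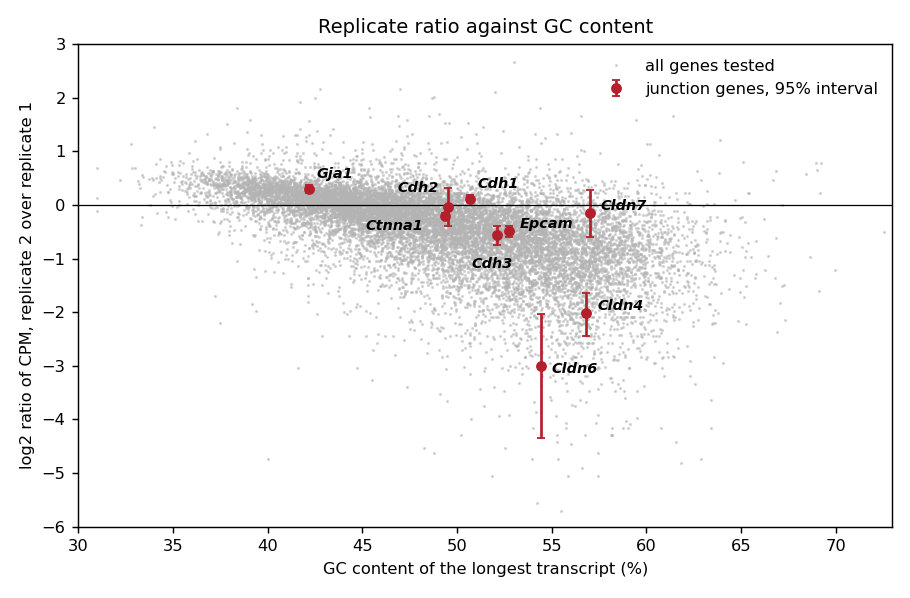
Log2 ratio of CPM, replicate 2 over replicate 1, against GC content of the longest transcript for all genes tested that have one (grey) and the 9 junction genes (red, with 95% exact intervals). The ratio declines with GC content; *Cldn4* and *Cldn6* lie at ratios of −2.02 and −3.0, and *Cldn7*, near *Cldn4* in GC content, at −0.16.

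Against the ratio expected from GC content (a trend of degree 3 fitted on 9230 autosomal genes), 7 of the 9 genes passed the exact test, beside 45.6% of all genes. *Cdh1*, *Gja1*, *Cldn4* and *Cldn6* were called in the same direction as before, *Epcam* and *Ctnna1* in the other, *Cldn7* was newly called and *Cdh3* was no longer called. The genes above expectation in replicate 2 were 5, beside 24% of all genes, and those below it were 2, beside 21.6%. *Cldn6* and *Cldn4* remained below, by a log2 of −2.32 (adjusted p = 2.68e-07, exact binomial test) and −1.26 (adjusted p = 1.63e-11). *Cdh1* and *Cldn7* were each above by 0.60 (adjusted p = 4.96e-81 and 0.0138, exact test), *Gja1* by 0.21 and *Ctnna1* by 0.20. *Epcam* was 0.11 above (adjusted p = 0.0482) and *Cdh3* 0.01 above (adjusted p = 0.969). TMM factors shift every log2 ratio by 0.26. With them 3 of the 9 were called higher, beside 28.8% of all genes, and 4 lower, beside 28.9%, and the ratio of *Ctnna1* turned to 0.05 (adjusted p = 0.0456, exact test). *Cldn4*, *Cldn6*, *Cdh1* and *Gja1* kept their direction and passed under all 3 scalings.

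**Figure D4:**
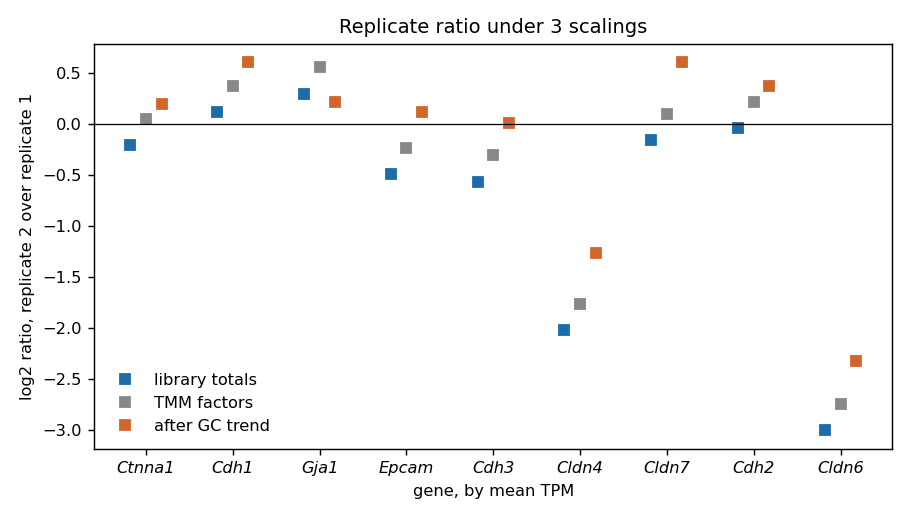
Log2 ratio, replicate 2 over replicate 1, of the 9 genes scaled by library totals, by TMM factors and after the GC trend. *Cldn4* and *Cldn6* are below 0 and *Cdh1* and *Gja1* above 0 under all 3; *Ctnna1*, *Cdh2* and *Cldn7* change sign with TMM factors, and these and *Epcam* and *Cdh3* after the GC trend.

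Promoter sequence is given as a description of the claudins and *Epcam*, and a link to the replicate ratios was not tested. RefSeq promoters (GRCm38.p6, the assembly of mm10) were matched for 5 of the 9 genes, namely *Epcam*, *Cldn4*, *Cldn6*, *Cldn7* and *Gja1*. In each, 240 bases ending shortly before the transcription start were searched on both strands for CACCTG, the E-box that SNAIL and ZEB repressors are known to bind, and for GGGCGG, the GC box bound by SP and KLF factors. The letters AACCNGTT of Grainyhead factors, known activators of epithelial genes, were searched as well. The stretches run 5′ to 3′ on the strand of the gene, and capitals mark E-boxes and GC boxes. The *Cldn6* stretch stops where an annotated exon begins. Of the *Cldn7* starts the upstream one is shown, since the window of the downstream one begins inside an annotated exon.

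*Epcam*, chr17:87635729-87635968, plus strand: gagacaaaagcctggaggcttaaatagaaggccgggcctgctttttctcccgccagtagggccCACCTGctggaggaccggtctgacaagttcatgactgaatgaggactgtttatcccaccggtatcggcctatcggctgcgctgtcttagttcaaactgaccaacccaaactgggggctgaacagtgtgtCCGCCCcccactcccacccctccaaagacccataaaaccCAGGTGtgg
*Cldn4*, chr5:134946945-134947184, minus strand: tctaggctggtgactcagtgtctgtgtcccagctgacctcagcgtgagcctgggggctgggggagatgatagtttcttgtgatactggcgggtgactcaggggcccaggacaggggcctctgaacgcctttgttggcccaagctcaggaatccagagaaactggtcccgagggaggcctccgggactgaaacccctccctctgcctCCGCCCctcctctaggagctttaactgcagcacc
*Cldn6*, chr17:23679115-23679248, plus strand: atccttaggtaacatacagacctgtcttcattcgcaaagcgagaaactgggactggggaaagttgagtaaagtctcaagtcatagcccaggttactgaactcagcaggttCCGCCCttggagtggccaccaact
*Cldn7*, chr11:69964529-69964768, plus strand: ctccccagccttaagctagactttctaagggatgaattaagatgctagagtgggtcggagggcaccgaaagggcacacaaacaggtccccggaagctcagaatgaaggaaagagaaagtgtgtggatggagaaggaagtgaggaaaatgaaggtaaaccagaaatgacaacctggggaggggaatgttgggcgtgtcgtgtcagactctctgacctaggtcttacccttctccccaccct

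*Epcam* held 2 E-boxes and 1 GC box. *Cldn4* held 1 GC box and no E-box, and *Cldn6* held 1 GC box and, in the part not shown, 1 E-box. The upstream *Cldn7* window and the *Gja1* window held neither. The downstream *Cldn7* window, which begins inside an annotated exon, held 2 E-boxes. Over 32851 RefSeq promoters of the same length, 16.6% held the E-box and 31.3% the GC box. AACCNGTT was found in none of the 6 windows and in 1.74% of all. A match says only that these letters are there, and binding was not measured.

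Of 7 listed repressors of the epithelial program, 4 reached 1 TPM, beside 55.4% of all genes. *Zeb1* was highest, with 1127 and 1072 counts (25.9 and 30.6 TPM), and was the only 1 of the 5 with enough counts to be tested that passed the replicate test, with a log2 ratio of 0.15 (adjusted p = 0.0232, exact binomial test), beside 15.1% of all genes called higher. After the GC trend 2 of the 5 were called higher, beside 24% of all genes, the other being *Twist1* (log2 0.77, adjusted p = 0.000524). *Twist1* stood at 9.07 and 9.66 TPM, *Snai3* at 3.60 and 2.13 TPM and *Snai2* at 0.856 and 1.15 TPM. *Zeb2* had 24 and 14 counts (0.279 and 0.202 TPM), *Snai1* 4 and 1 counts and *Twist2* 1 count in each library. The TPM of *Zeb1* was 92.6 and 151 times that of *Zeb2* with exonic length, and 33.2 and 54.1 times with the span length.

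Most scaffold genes of adherens and tight junctions reached 1 TPM. Of 17 adherens junction plaque and nectin genes, 15 reached 1 TPM and 9 reached 10 TPM, beside 55.4% and 34.1% of all genes. After *Ctnnb1*, the highest were *Mllt4* (afadin, which links nectins to actin) at 162 and 195 TPM and *Pvrl3* (nectin-3) at 98.3 and 138 TPM. In this list 12 of 17 passed the replicate test, 4 higher and 8 lower in replicate 2, beside 15.1% and 45.7% of all genes. The direction depended on the scaling, with 6 higher and 6 lower under TMM factors (28.8% and 28.9% of all genes) and 8 higher and 0 lower after the GC trend (24% and 21.6%). *Pvrl4*, with 24 and 6 counts, had the widest ratio, and its call was lost after the GC trend (adjusted p = 0.212, exact binomial test). Of 19 tight junction scaffold and polarity genes, 18 reached 1 TPM and 13 reached 10 TPM, beside 55.4% and 34.1% of all genes. The highest were the polarity genes *Mpp5* (PALS1) at 247 and 316 TPM and *Prkci* at 171 and 179 TPM. *Jam2* followed at 111 and 104 TPM. In this list 1 was called higher and 7 lower, beside 15.1% and 45.7% of all genes, but 6 higher and 4 lower under TMM factors (28.8% and 28.9%) and 7 higher and 2 lower after the GC trend (24% and 21.6%). The widest ratio was that of *Pard6a*, with 14 and 0 counts.

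Genes of the desmosome list and of the regulator and keratin list reached 1 TPM about as often as all genes. Of 10 desmosome genes, 5 reached 1 TPM, beside 55.4% of all genes. *Pkp2* (plakophilin 2) led at 71.4 and 75.3 TPM, then *Perp* at 38.2 and 52.6 TPM and *Dsg2* (desmoglein 2) at 19.3 and 18.8 TPM, while *Dsc1* was listed at 0. Of 7 desmosome genes tested, *Perp* was called higher in replicate 2 and *Pkp1*, with 19 and 2 counts, lower, beside 15.1% and 45.7% of all genes. With TMM factors 4 were called higher and 1 lower, beside 28.8% and 28.9%, and after the GC trend 3 higher and 1 lower, beside 24% and 21.6%. Of 11 epithelial regulators and keratins, 6 reached 1 TPM, beside 55.4% of all genes. The splicing regulator *Esrp1* stood at 52.8 and 52.5 TPM, and the Grainyhead factors *Grhl1* and *Grhl2* at 15.2 and 17.9 TPM and at 7.56 and 7.07 TPM, none of these called with library totals as the scale. In this list 4 of the 10 tested were called, all lower in replicate 2, beside 45.7% of all genes, namely *Grhl3*, *Elf3*, *Ovol2* and *Krt18*. With TMM factors 2 were called higher and 2 lower, beside 28.8% and 28.9%, and after the GC trend *Esrp1* and *Grhl1* were called higher and none lower, beside 24% and 21.6%. Among the keratins, *Krt18* had 14 and 3 counts, so that it was tested only because of replicate 1, and it was called lower in replicate 2 (adjusted p = 0.0432, exact binomial test), though not after the GC trend (adjusted p = 0.320). *Krt8* had 8 and 6 counts, but 26.9% of its 50-base words also occur in pseudogene transcripts.

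Over the 129 genes of these lists together, 65 reached 1 TPM, which is 50.4%, beside 55.4% of all genes. Of the 86 that could be tested, 9 were called higher and 31 lower in replicate 2, beside 15.1% and 45.7% of all genes. With TMM factors 22 were called higher and 20 lower, beside 28.8% and 28.9%. With the GC trend as expectation, 24 were called higher and 7 lower, beside 24% and 21.6%. Genes with under 10 counts in replicate 2, such as *Gjb5*, *Pvrl4*, *Pard6a* and *Pkp1*, were tested only because of replicate 1. The lowest log2 ratios called in these lists were −4.63 for *Pard6a*, −2.94 for *Gjb5*, −2.74 for *Pkp1* and −2.66 for *Spint1*. *Spint1*, with 151 and 20 counts, passed with library totals (adjusted p = 3.95e-21, exact binomial test) and after the GC trend (adjusted p = 4.06e-10). With 2 libraries each gene gives a single ratio, so a pattern shared with *Cldn4* and *Cldn6* was not tested.

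**Figure D5:**
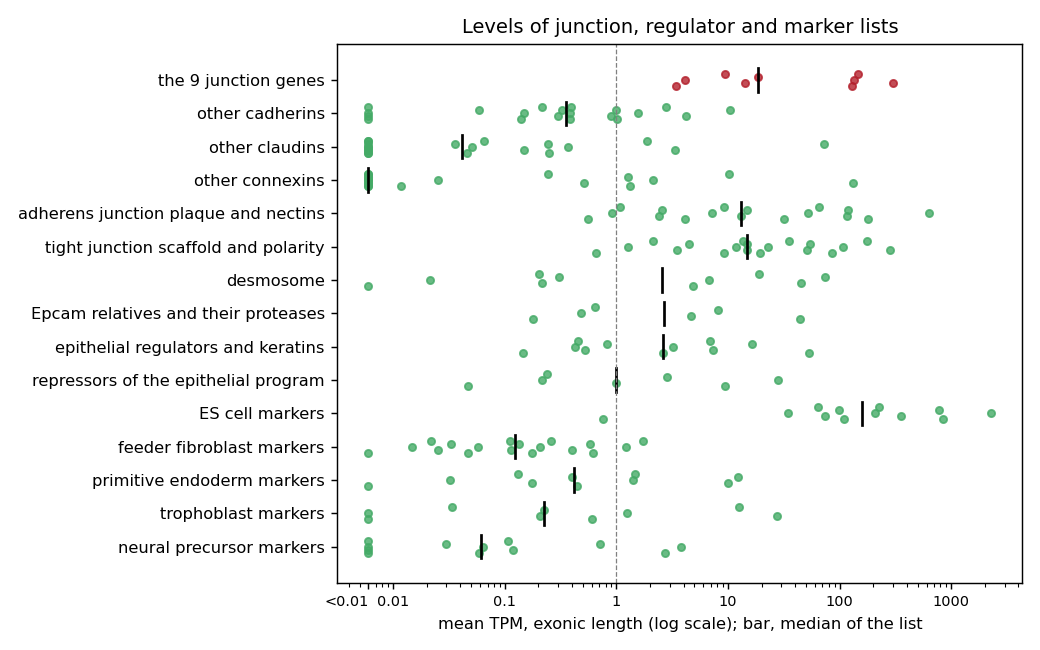
Mean TPM (exonic length, log scale) of each gene in the 9 junction genes, 9 lists of related genes and 5 marker lists; bars are list medians, the dashed line marks 1 TPM, and genes under 0.01 TPM are drawn at the left edge. Scaffold lists and ES cell markers lie to the right, and other claudins and connexins to the left.

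The labelled cell type was checked against markers. Of 12 ES cell markers, 11 reached 10 TPM, led by *Tdgf1*, *Zfp42* and *Nanog* at means of 2284, 847 and 774 TPM, and *Utf1* stood at 0.758 TPM. In this list 10 of 12 were called lower in replicate 2 and 1 higher, beside 45.7% and 15.1% of all genes, and 6 were lower and 3 higher both with TMM factors (28.9% and 28.8%) and after the GC trend (21.6% and 24%). *Dppa5a* had the widest ratio, with 2915 and 298 counts, of which some may belong to copies, since 28.2% of its 50-base words also occur in pseudogene transcripts, and it stayed far below after the GC trend, at a log2 of −2.65. *Pou5f1*, the gene of the pluripotency factor OCT4, had 1129 and 142 counts (110 and 17.3 TPM), with a log2 ratio of −2.76 and of −1.99 after the GC trend. *Esrrb*, another pluripotency factor, had 4325 and 1563 counts, with log2 ratios of −1.24 and −0.54. Whether the low claudin values of replicate 2 and these marker values share a source was not tested.

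Feeder fibroblasts are known to express *Cdh2* and *Gja1*, so their markers are given beside these genes. Of 18 fibroblast markers, 2 reached 1 TPM, and their summed level was 7.99 TPM in replicate 1 and 3.47 TPM in replicate 2. *Col5a1*, *Thy1* and *Loxl1* were highest, at means of 1.71, 1.22 and 0.620 TPM, and these 3 of the 8 tested were called lower in replicate 2 with library totals, beside 45.7% of all genes. The calls of *Col5a1* and *Loxl1* were lost with TMM factors (adjusted p = 0.130 and 0.0964, exact binomial test) and after the GC trend (adjusted p = 0.632 and 0.465), and that of *Thy1* was not. *Thy1* had the widest ratio, with 32 and 2 counts. Among the defining genes of fibroblasts, *Col1a1* had 4 and 5 counts, *Col3a1* 0 and 1, *Dcn* 2 and 1, and *Lum* 0 in both. The TPM of *Cdh2* was 4.03 and 4.17 in replicates 1 and 2, and that of *Gja1* was 116 and 152. The part of feeder cells in the levels of *Cdh2* and *Gja1* was not tested.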

How the data were processed

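mRNA was isolated with oligo(dT) beads and sequenced as stranded libraries from 2 replicates of 1 group. The deposited file holds raw counts per gene, made by the authors with featureCounts 1.5.2 per the file header over the whole transcribed span of each gene on mm10. The submitters' processing notes also name Bowtie2 2.3.2 and STAR 2.4.2a. The deposited length column (unit other) holds that span.

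From these counts CPM and TPM were computed, with exonic lengths from GENCODE M21 (the union of exons, GRCm38) for 22089 of 22556 genes, of which 847 were matched by an older symbol. Totals were 23716499 and 20275749 counts. Genes with at least 10 counts in total were tested between replicates with a two-sided exact binomial test (scipy 1.17.1, Benjamini-Hochberg adjustment). A pseudocount of 0.5 counts entered the log2 ratio only. TMM factors came from edgeR 4.0.16 and size factors from DESeq2 1.42.0 (R 4.3.3), as scaling only, since 1 group allows no test between groups. A trend with GC content was fitted to autosomal genes that had 50 counts or more in both replicates. The steps were tested on simulated data. Other lengths, thresholds, filters and scalings were tried as alternatives.

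The 9 genes and the gene lists were chosen with earlier results of these data known. The genes named were the 9, the highest 3 of each list by mean TPM, the called gene with the widest ratio of each list, and all listed repressors. Any other gene was named after its values were seen. Some genes that this rule names are not reported here. Protein sequences were not compared here.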

Additional observations from a re-analysis of the deposited data

How the results depend on the processing

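Of 103 alternative values over 23 results, 11 changed sign and 18 moved, all but a count of genes by more than the SD of the replicates. Among those that moved, 6 levels of the 9 genes and their median were in CPM instead of TPM, so these moves include a change of unit. With 2 replicates the level in either alone always lies within 1 SD of their mean, so leaving out a replicate says nothing about the stability of a level, as for *Cldn6* at 6.11 and 0.769 TPM. The order of the 9 levels held for 25 of 36 pairs with the span length. The median level of the 9 genes was 18.4 TPM with exonic length, 43.2 TPM with the span length and 24.9 CPM with no length. At a threshold of 5 TPM, 41 of the 129 listed genes passed, against 65 at 1 TPM. With TMM factors the log2 ratio of replicate 2 over replicate 1 turned to 0.22 for *Cdh2*, 0.10 for *Cldn7* and 0.052 for *Ctnna1*, and with DESeq2 size factors to 0.28, 0.16 and 0.11. After the GC trend it turned to 0.38 for *Cdh2*, 0.60 for *Cldn7*, 0.20 for *Ctnna1*, 0.0088 for *Cdh3* and 0.11 for *Epcam*. The cause of the differences between scalings was not tested. Depth limits *Cldn6*, with 8 counts in replicate 2, most among the 9. No paired analysis was possible because only 1 group was sequenced here.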

Other observations

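Markers of other early lineages ranged from 0 to 27.6 TPM. Among 9 trophoblast markers, the transcription factor genes *Tfap2c* and *Eomes* led at means of 27.6 ± 2.76 and 12.6 ± 2.39 TPM (SD, n = 2), while *Cdx2* and *Tpbpa* were listed at 0 in both libraries. Among 10 primitive endoderm markers, *Dab2* led at 12.2 ± 0.382 TPM and *Lama1*, a laminin gene, followed at 10.01 ± 2.73 TPM, while *Gata4* stood at 1.47 ± 0.169 TPM (SD, n = 2). Among 12 neural precursor markers, *Nes* and *Tubb3* led at 3.80 ± 0.182 and 2.72 ± 1.59 TPM (SD, n = 2), and *Neurog1* and *Olig2* were listed at 0. The summed levels were 45.9 and 39.1 TPM for the trophoblast list, 28.5 and 24.1 TPM for the endoderm list and 9.07 and 6.17 TPM for the neural list in replicates 1 and 2.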
